A study of Mus musculus with 2 samples.

Results

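Chemokine receptors are the surface proteins by which leukocytes read chemokines, the small secreted proteins that steer them into and hold them in tissues, and 10 such receptor genes (Cxcr6, Cxcr4, Ccr1, Ccr2, Ccr3, Ccr4, Ccr7, Ccr8, Ccr9 and Cx3cr1) are described here in the fetal mouse lung. They were picked by symbol, and all 10 were found among the 32285 genes counted. Cells were sorted from wild-type C57BL/6J fetuses at embryonic day 18, as live CD45-positive, ST2-positive cells without lineage markers (among them CD3e, CD4, CD8A, CD11b, CD11c, TER119 and TCR). Mothers were 9 weeks old and drank water with dexamethasone (DEX, a synthetic glucocorticoid) at 1.3 µg/ml from gestation day 12, or with PBS alone. Each group held 2 litters, and the fetuses of a litter were pooled, with 8 and 9 fetuses in the DEX litters and 5 and 8 in the PBS litters. Each litter carried its own hashtag antibody, and all 4 were sequenced in 1 library, so the litter was the replicate and differences between animals of a litter were not seen.

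The receptors couple to inhibitory G proteins, and binding of a chemokine turns a cell towards its source. Cxcr6 (ligand Cxcl16) and Ccr9 (ligand Ccl25) are known for holding lymphocytes in mucosal tissues, Ccr4 (Ccl17, Ccl22) and Ccr8 (Ccl1) for type 2 lymphocytes, Ccr7 (Ccl19, Ccl21) for traffic to lymph nodes, and Cxcr4 (Cxcl12) for retention in bone marrow. Ccr1, Ccr2 and Ccr3 serve inflammatory leukocytes and bind Ccl3, Ccl2 and the eotaxin Ccl11, among others, while Cx3cr1 binds Cx3cl1, a ligand that is anchored in the membrane. ILC2s, group 2 innate lymphoid cells, respond to IL-33 through ST2 and live in tissues such as the lung. The question was in which of the sorted cells each receptor was found, and whether its level differed between DEX and PBS litters.

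Of the receptor genes, 8 of 10 lie on mouse chromosome 9 (GRCm38, GENCODE M21). Cx3cr1 (chr9:119901616-120069879, minus strand) and Ccr8 (chr9:120092114-120094906, plus strand) lie 22235 bp apart with no other protein-coding gene between them. Ccr9 (chr9:123678439-123784330, plus strand) and Cxcr6 (chr9:123806475-123811760, plus strand) lie 22145 bp apart, again with no coding gene between. Ccr1 (chr9:123962124-123968692, minus strand), Ccr3 (chr9:124021972-124031689, plus strand) and Ccr2 (chr9:124101950-124113557, plus strand) follow, so that the 5 genes from Ccr9 to Ccr2 take up 435 kb. Ccr4 (chr9:114490316-114504916, minus strand) stands apart on the same chromosome, Cxcr4 lies at chr1:128588199-128592293 (minus strand) and Ccr7 at chr11:99144196-99155077 (minus strand).

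The 250 bases before the RefSeq start (GRCm38.p6) are shown for both neighbouring pairs, since these 4 genes marked the ILC2-like and the mast-like cells. Capitals mark a match to the letters AGATAA or TGATAA on either strand, a motif bound by GATA factors, and the other letters are in lower case.
Cxcr6 (chr9:123806227-123806476, plus strand): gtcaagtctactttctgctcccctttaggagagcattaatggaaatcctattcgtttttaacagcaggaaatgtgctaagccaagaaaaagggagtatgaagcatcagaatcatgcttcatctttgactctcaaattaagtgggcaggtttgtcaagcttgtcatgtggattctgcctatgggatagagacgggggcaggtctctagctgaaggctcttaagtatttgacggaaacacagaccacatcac
Ccr9 (chr9:123766961-123767210, plus strand): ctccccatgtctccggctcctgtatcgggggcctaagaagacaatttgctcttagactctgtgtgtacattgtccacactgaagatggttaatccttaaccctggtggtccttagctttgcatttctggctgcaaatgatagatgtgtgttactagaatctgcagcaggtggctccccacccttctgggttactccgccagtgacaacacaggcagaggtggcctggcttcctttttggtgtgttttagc
Ccr8 (chr9:120091883-120092132, plus strand): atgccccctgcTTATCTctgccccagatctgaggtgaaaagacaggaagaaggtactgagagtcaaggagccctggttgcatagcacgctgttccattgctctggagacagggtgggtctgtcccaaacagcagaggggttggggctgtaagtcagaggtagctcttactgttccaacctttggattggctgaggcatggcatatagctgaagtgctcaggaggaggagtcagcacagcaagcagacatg
Cx3cr1 (chr9:120068297-120068546, minus strand): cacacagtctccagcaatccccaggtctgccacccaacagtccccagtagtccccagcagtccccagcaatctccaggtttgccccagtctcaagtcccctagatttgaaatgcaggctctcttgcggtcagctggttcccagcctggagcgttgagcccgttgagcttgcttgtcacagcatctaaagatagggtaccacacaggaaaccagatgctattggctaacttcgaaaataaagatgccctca
In the Ccr8 window the match begins at base -239 and reads TTATCT, the motif on the opposite strand. Windows were held for 9 of the 10 genes, and 3 of them (Ccr2, Ccr3 and Ccr8) contained the GATA letters, which 16.6% of all 32851 windows contain. The letters AGAACA, a part of the motif bound by the glucocorticoid receptor, were found on either strand in 1 of the 9 (Cxcr4), against 16.1% of all windows. The Ccr7 window was not analysed here.

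Of 10648 barcodes, 7268 passed the filters and carried a single hashtag. Cells were grouped without using any of the receptors or their ligands, and the groups were named from marker genes. There were 2071 ILC2-like cells, 2386 mast-like cells, 479 basophil-like cells, 210 B-like cells and 31 neutrophil-like cells, the last too few to compare. A group of 227 cells had macrophage and monocyte markers but was also led by the eosinophil gene Ear2, and is called the Ctss-led cluster. Elane-led (408 cells) and Scin-led (136 cells) clusters shared mast and basophil markers and stayed unnamed, and 22.7% of the Scin-led barcodes were hashtag doublets. The Scin-led cluster was not tested, since DEX-1 held 19 of its cells, under the minimum of 20 in each litter. Endothelial-like (230), epithelial-like (191) and mesenchymal-like (211) cells were also present, despite the CD45 gate, and other clusters were not compared. All 9 ILC2 markers were found in ILC2-like cells at or above 10 CPM in each subcluster. Of other lists there, 5 of 8 B, 6 of 9 macrophage and 4 of 9 basophil markers were under 1 CPM in every litter. These lists summed to 52.6 to 67.7, 8.94 to 11.9 and 21.9 to 26.4 CPM. Mast markers summed to 389 to 453 CPM, with 2 of 10 under 1 CPM, and monocyte markers to 82.3 to 144 CPM, with 3 of 9. T cell markers summed to 605 to 687 CPM, with Cd4 under 1 CPM. Summed counts of unique molecular identifiers (UMIs) per litter ran from 3750072 to 5261170 in ILC2-like cells. Levels below are UMIs summed per class and litter and given per 1000000 (CPM), as mean ± SD (n = 4 litters). Scaling factors (TMM) fitted over all class and litter sums put the classes on 1 scale. Levels in subclusters and in clusters within a class are per 1000000 of their own UMIs, without these factors. They are therefore not on the scale of the class levels. Tested comparisons are scaled within each fit. Since classes were cut from the same cells, no class was tested against another, and levels are not compared between genes.

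Cxcr6, Ccr9 and Ccr4 were highest in ILC2-like cells. Cxcr6 was measured in ILC2-like cells at 214 and 234 CPM in DEX litters and 247 and 247 CPM in PBS litters (235 ± 15.8 CPM). The next class, mesenchymal-like cells, had 18.3 ± 13.3 CPM, which was 12.8-fold lower, and all litters of ILC2-like cells lay above all of those. In mast-like cells Cxcr6 was nearly absent, at 0.191 CPM. Ccr9 was measured in ILC2-like cells at 205, 216, 239 and 251 CPM in DEX-1, DEX-2, PBS-1 and PBS-2 (228 ± 20.9 CPM). Mesenchymal-like cells again came next for Ccr9, at 14.6 CPM and 15.6-fold lower, with no overlap of litters. Ccr4 stood at 33.0, 34.0, 28.6 and 28.8 CPM (31.1 ± 2.83 CPM) in ILC2-like cells, 7.99-fold above mesenchymal-like cells, and under 2 CPM in each other class compared. Below the ILC2-like cells, the ranges of neighbouring classes overlapped for all 3 genes.

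Ccr8 was found in both mast-like and ILC2-like cells. Mast-like cells had 1147.5, 1050.5, 974 and 1091 CPM (1066 ± 72.9 CPM) in DEX-1, DEX-2, PBS-1 and PBS-2, and ILC2-like cells had 568, 664, 725 and 699 CPM (664 ± 68.9 CPM). Every mast-like value lay above every ILC2-like value, a 1.61-fold difference. Scin-led cells followed with 247 CPM and mesenchymal-like cells with 191 CPM, whose litters overlapped, then Elane-led cells with 65.0 CPM. Basophil-like cells had 17.5 CPM, close to the 12.7 CPM of epithelial-like cells and overlapping with them. Mesenchymal-like cells ranked high for several receptors of other classes. In 1 of their clusters (116 cells) the share of cells with mast markers came to 51.6% of that for mesenchymal markers; the part of mast cell RNA in these values was not tested.

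Cx3cr1, the neighbour of Ccr8, was highest in mast-like cells and near absent from ILC2-like cells. Mast-like cells had 326, 330, 328 and 349 CPM (333 ± 10.6 CPM). Scin-led cells had 200 CPM and did not overlap with mast-like cells or with mesenchymal-like cells (75.0 CPM), while mesenchymal-like, Ctss-led (51.9 CPM) and Elane-led (50.3 CPM) cells overlapped. Cx3cr1 is best known from monocytes and macrophages, whose markers the Ctss-led cells carry. ILC2-like cells came last of 10 classes, at 4.74 ± 3.14 CPM.

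Ccr7 was the receptor of the B-like cells. It was measured there at 796, 1573, 705 and 1359 CPM (1108 ± 424 CPM) in DEX-1, DEX-2, PBS-1 and PBS-2, so the litters of each group differed widely. ILC2-like cells came next with 13.7 ± 7.15 CPM, 80.7-fold lower, and overlapped with mesenchymal-like cells (11.6 CPM). Not a single Ccr7 UMI was found in the 479 basophil-like cells, where 3 UMIs in a litter would be 2.71 to 5.54 CPM.

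Cxcr4, Ccr1 and Ccr2 were highest in basophil-like cells. Basophil markers summed there to 8429 to 15016 CPM over the litters. Mast markers summed to 4368 to 6631 CPM and monocyte markers to 2213 to 3503 CPM. Epithelial markers reached 2409 CPM in DEX-2 and erythroid markers 883 CPM in PBS-1. The part of other cells' RNA in these receptor levels was not tested. In basophil-like cells Cxcr4 stood at 144, 256, 201 and 173 CPM (194 ± 47.9 CPM), 8.57-fold above B-like cells (22.6 CPM), with no overlap. ILC2-like (16.5 CPM) and mast-like (15.7 CPM) cells had similar Cxcr4 levels, within the spread between litters. Ccr1 stood at 151, 171, 184 and 144 CPM (162 ± 18.1 CPM) in basophil-like cells and at 115, 89.6, 115 and 106 CPM (107 ± 12.1 CPM) in the Ctss-led cluster. These ranges did not overlap, and the difference was 1.52-fold. Mast-like cells had 19.7 CPM of Ccr1, and ILC2-like cells had 2 UMIs in all, below the 3 counts taken as the lowest that can be read as a level.

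Ccr2, the receptor by which monocytes leave the bone marrow, did not separate basophil-like from Ctss-led cells. Basophil-like cells had 170, 201, 321 and 135 CPM (207 ± 80.9 CPM) and Ctss-led cells 115, 115, 195 and 167 CPM (148 ± 39.6 CPM), so the ranges overlapped. ILC2-like cells came next with 43.8, 51.2, 61.1 and 53.3 CPM (52.3 ± 7.09 CPM), below all Ctss-led values and above all values of the Scin-led cluster (14.8 CPM). Ccr3, the eotaxin receptor of eosinophils, was at or near the counting limit in each class. The highest level was in basophil-like cells, with 5, 4, 3 and 0 UMIs in the litters, at most 7.34 CPM where 3 UMIs are worth 2.71 to 5.54 CPM. No order of classes can be read for Ccr3.

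**Figure D1:**
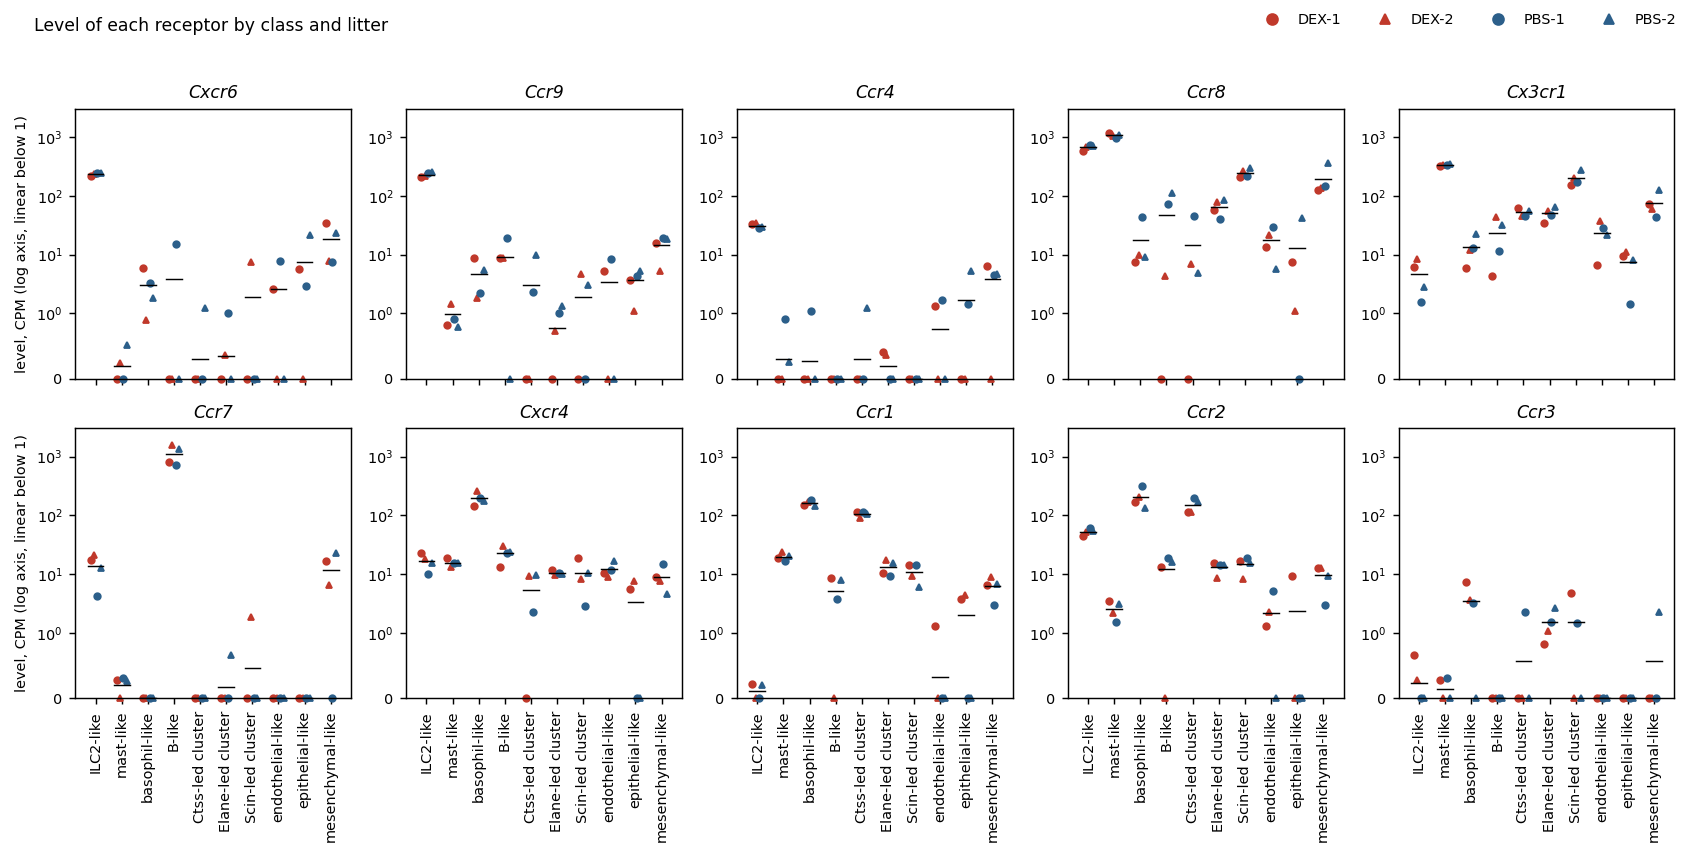
Level of each receptor (CPM, log axis that is linear below 1) in 10 classes of cells; each point is a litter and each line the mean of 4 litters. Cxcr6, Ccr9 and Ccr4 stand out in ILC2-like cells, Ccr8 in mast-like and ILC2-like cells (1066 and 664 CPM), Cx3cr1 in mast-like cells, Ccr7 in B-like cells and Cxcr4, Ccr1 and Ccr2 in basophil-like cells, while Ccr3 stays below 10 CPM.

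Since free RNA gives UMIs in cells that do not express a gene, shares of cells with a UMI were set beside those in epithelial-like cells, with each cell thinned to 2000 UMIs (shares without thinning in brackets); 325 singlets below that depth were left out. Median depth was 7180 UMIs in ILC2-like cells, 6513 in mast-like cells, 7171 in basophil-like cells, 3556 in B-like cells and 13567 in epithelial-like cells. Ccr8 was found in 72.0% of mast-like cells (83.8%) and 55.3% of ILC2-like cells (76.1%), against 0.526% of epithelial-like cells. Ccr9 was found in 32.0% (64.2%), Cxcr6 in 29.0% (58.5%), Ccr2 in 8.95% (24.0%) and Ccr4 in 6.01% (18.3%) of ILC2-like cells, with at most 1.05% in epithelial-like cells. All these shares were above the background class.

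Cx3cr1 was found in 36.7% of mast-like cells (64.3%) and in 0.636% of ILC2-like cells (2.85%), which was below the 1.58% of epithelial-like cells (8.90%). So the share of ILC2-like cells with Cx3cr1 read as background. Ccr7 was found in 73.0% of B-like cells (82.9%) and in 1.71% of ILC2-like cells, where epithelial-like cells had 0 of 190, which allows a share of up to 1.58%. Mesenchymal-like cells had Ccr7 in 1.93% (4 of 207), above the share of ILC2-like cells. Cxcr4 was found in 2.84% of ILC2-like cells (9.90%). Its share was 1.05% in epithelial-like, 3.04% in endothelial-like and 3.38% in mesenchymal-like cells. Ccr2 was found in 30.1% and Ccr1 in 22.1% of basophil-like cells, and Cxcr4 in 25.3% of them (56.8%), with Ccr2 in 26.1% and Ccr1 in 19.3% of Ctss-led cells. Intervals and limits here cover counting error only.

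Levels were correlated across the 40 sums of 10 classes and 4 litters. Cxcr6, Ccr9 and Ccr4 were each highest in ILC2-like cells and far lower in the next class. A high r between them follows largely from that, and does not show that they vary together within these cells. Within ILC2-like cells, their highest means lay in different subclusters, as given below. Pearson's r of log2(CPM + 1) was 0.912 for Cxcr6 and Ccr9, 0.893 for Cxcr6 and Ccr4 and 0.853 for Ccr4 and Ccr9. It was 0.643 for Ccr1 and Ccr2, 0.441 for Ccr8 and Cx3cr1, and -0.523 for Ccr9 and Cx3cr1. These describe differences between classes of 1 library, and litters of a class are not separate points, so no p is given. So neighbours on the chromosome ranged from a high r, for Ccr9 and Cxcr6, to a moderate one, for Ccr8 and Cx3cr1.

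The genes with the most similar pattern, among 10003, were for Cxcr6 Tnfrsf25 (r = 0.954), Zap70 (0.941) and Sh2d2a (0.930), and for Ccr9 Sh2d2a (0.938), Cxcr6 (0.912) and Tnfrsf25 (0.881). Tnfrsf25 is the receptor for the cytokine TL1A and Zap70 a kinase of lymphocyte receptor signalling. For Ccr4 they were Actn2 (0.944), 1700113H08Rik (0.933) and Gm16271 (0.928), and for Ccr8 Il9r (0.907), Zcchc10 (0.894) and Thsd4 (0.872). Il9r encodes the receptor for interleukin-9, a cytokine of ILC2s and mast cells. For Cx3cr1 they were the protease Cma1 (0.904), Chst1 (0.900) and the protease Tpsb2 (0.865), which are mast cell genes apart from Chst1. For Ccr7 they were the lymphocyte adhesion gene Cd2 (0.962), the B cell coactivator Pou2af1 (0.938) and Ccr6 (0.932). For Cxcr4 the values were lower, with Tmem71 (0.845), Fam32a (0.806) and H2-T23 (0.790). Ccr1 was most like Cd300a (0.908), Plek (0.906) and Alox5ap (0.906), the last of which serves leukotriene synthesis. Ccr2 was most like Glipr2 (0.861), Mrpl33 (0.854) and Ethe1 (0.852).

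Ligands of the receptors were spread over the sorted cells. Basophil-like cells had Ccl4 at 10876 CPM and Ccl3 at 6378 CPM, and Ctss-led cells had Ccl6 at 3691 CPM; basophil-like cells also had 1585 CPM of Ccl6 and 1209 CPM of Ccl9. Several of these bind Ccr1, which the same classes carried. Ctss-led cells had the Ccr2 ligands Ccl2 (225 ± 248 CPM), Ccl7 (107 ± 132 CPM) and Ccl12 (76.4 ± 20.97 CPM) and the Ccr3 ligand Ccl24 (55.7 ± 107 CPM), most of which differed widely between litters. Ccl1, the ligand of Ccr8, was found in Scin-led (94.7 CPM), mast-like (92.3 CPM) and ILC2-like (34.3 CPM) cells, the 3 classes with the highest Ccr8 means. Ccl5 stood at 207 ± 238 CPM in B-like and 84.7 CPM in ILC2-like cells. Cxcl12, the ligand of Cxcr4, was highest in endothelial-like cells (949 ± 327 CPM), where Cx3cl1 was also highest (11.3 CPM). Cxcl16 was highest in epithelial-like cells (26.9 CPM), Ccl11 in mesenchymal-like cells (75.0 CPM) and Ccl17 in Scin-led (22.3 CPM) and mast-like (18.7 CPM) cells. Ccl25, the ligand of Ccr9, was at 12.0 CPM or less in each class, and Ccl19, Ccl21a, Ccl22, Ccl26 and Ccl8 had means under 10 CPM in each class. The gate removed most lung cells, so these levels describe the sorted cells and not the lung.

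Other receptors filled in the picture of each class. Among chemokine and decoy receptors, Ccrl2, which binds the chemoattractant chemerin, stood at 292 CPM in basophil-like and 281 CPM in mast-like cells. Cxcr2, a receptor known from neutrophils, stood at 78.5 CPM in basophil-like cells, and the B cell receptors Cxcr5 (47.8 CPM) and Ccr6 (22.3 CPM) were highest in B-like cells. The scavenging receptors Ackr3 (204 CPM) and Ackr2 (31.9 CPM) were highest in endothelial-like cells and Cmklr1 (19.5 CPM) in mesenchymal-like cells. Among other chemoattractant and egress receptors, ILC2-like cells had Gpr25 (296 CPM) and Ltb4r1, the leukotriene B4 receptor (271 CPM). Basophil-like cells had the complement receptors C5ar1 (304 CPM) and C3ar1 (195 CPM), the oxysterol receptor Gpr183 (216 CPM) and S1pr4 (101 CPM). The egress receptor S1pr1 stood at 277 CPM in endothelial-like, 102 CPM in B-like and 30.3 CPM in ILC2-like cells. The formyl peptide receptors Fpr1 (104 CPM) and Fpr2 (58.7 CPM) were highest in Ctss-led cells and the histamine receptor Hrh4 (27.7 CPM) in mast-like cells.

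ILC2-like cells were divided further, without the receptors, into 7 subclusters that are called by their leading genes. These were the Ube2c-led (413 cells, 86.7% cycling), Ung-led (420), Ms4a4b-led (309), Hbb-bs-led (205), Ctla2b-led (500) and Pla2g7-led (192) subclusters, and a B3galt5-led one of 32 cells that was not compared. In each of the 6 compared, all 9 ILC2 markers stood at or above 10 CPM. Ms4a4b-led cells had 401 CPM of summed natural killer cell markers, with 1 of 7 markers at or above 10 CPM, against 3.89 to 110 CPM in the others compared. Pla2g7-led cells had 1127 CPM of summed mast markers, against 273 to 550 CPM. The part of these in the receptor levels was not tested. Cells from all 4 litters were in each subcluster, and levels in litters are given without a test.

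Ccr8 differed between the subclusters. It stood at 1132.5 CPM in Ctla2b-led cells (1081 to 1204 CPM over the litters) and at 154 CPM in Ms4a4b-led cells (128 to 169 CPM), a 7.36-fold difference with no overlap. Ctla2b-led cells were also led by Calca, the gene of the neuropeptide CGRP, so a high Ccr8 level went with that state. Ms4a4b-led cells, which were also led by Cd7, Ccl5 and Gzma, had the reverse order for Ccr2. Ccr2 stood there at 119 CPM (93.4 to 171 CPM), against 29.1 CPM in Pla2g7-led cells (16.0 to 36.7 CPM) and at most 60.5 CPM in any litter of the other subclusters compared. Cxcr6 was also highest in Ms4a4b-led cells, at 285 CPM (257 to 312 CPM), against 195 CPM in Ube2c-led cells (177 to 225 CPM), a 1.46-fold difference with no overlap. Hbb-bs-led cells overlapped with them for Cxcr6 (192 to 383 CPM). So Ms4a4b-led cells had the lowest mean of Ccr8 and the highest means of Ccr2 and Cxcr6 of the 6 subclusters.

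Ccr4 was highest in Hbb-bs-led cells, at 41.0, 48.8, 51.5 and 65.7 CPM in DEX-1, DEX-2, PBS-1 and PBS-2 (51.7 ± 10.3 CPM). It was lowest in Pla2g7-led cells, at 16.3, 6.99, 5.32 and 0 CPM, with no overlap. The Hbb-bs-led cells were led by hemoglobin genes and by Il5, the eosinophil growth factor gene, and had 738 CPM of summed erythroid markers; the part of red cell RNA in these values was not tested. Cxcr4 was highest in Ube2c-led cells (12.3 to 33.9 CPM) and Ms4a4b-led cells (6.15 to 36.2 CPM) and lowest in Pla2g7-led cells, where DEX-2 alone had a UMI. Ccr9 ran from 259 CPM in Ctla2b-led cells (203 to 307.97 CPM) to 120 CPM in Pla2g7-led cells (41.9 to 205 CPM), and these ranges overlapped. Ccr7 had its highest mean in Hbb-bs-led cells, at 125, 52.2, 0 and 54.7 CPM (55, 31, 0 and 15 UMIs), while Ube2c-led cells held more Ccr7 UMIs in both PBS litters (5 and 29). So 1 litter had no UMI in Hbb-bs-led cells, and the highest and lowest subclusters overlapped. In ILC2-like cells as a whole, erythroid markers stood at 253 CPM in DEX-1 and at 10.3 to 15.1 CPM in the other litters. Cx3cr1 levels overlapped in the same way, from 6.26 CPM in Ctla2b-led cells to 1.02 CPM in Pla2g7-led cells.

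**Figure D2:**
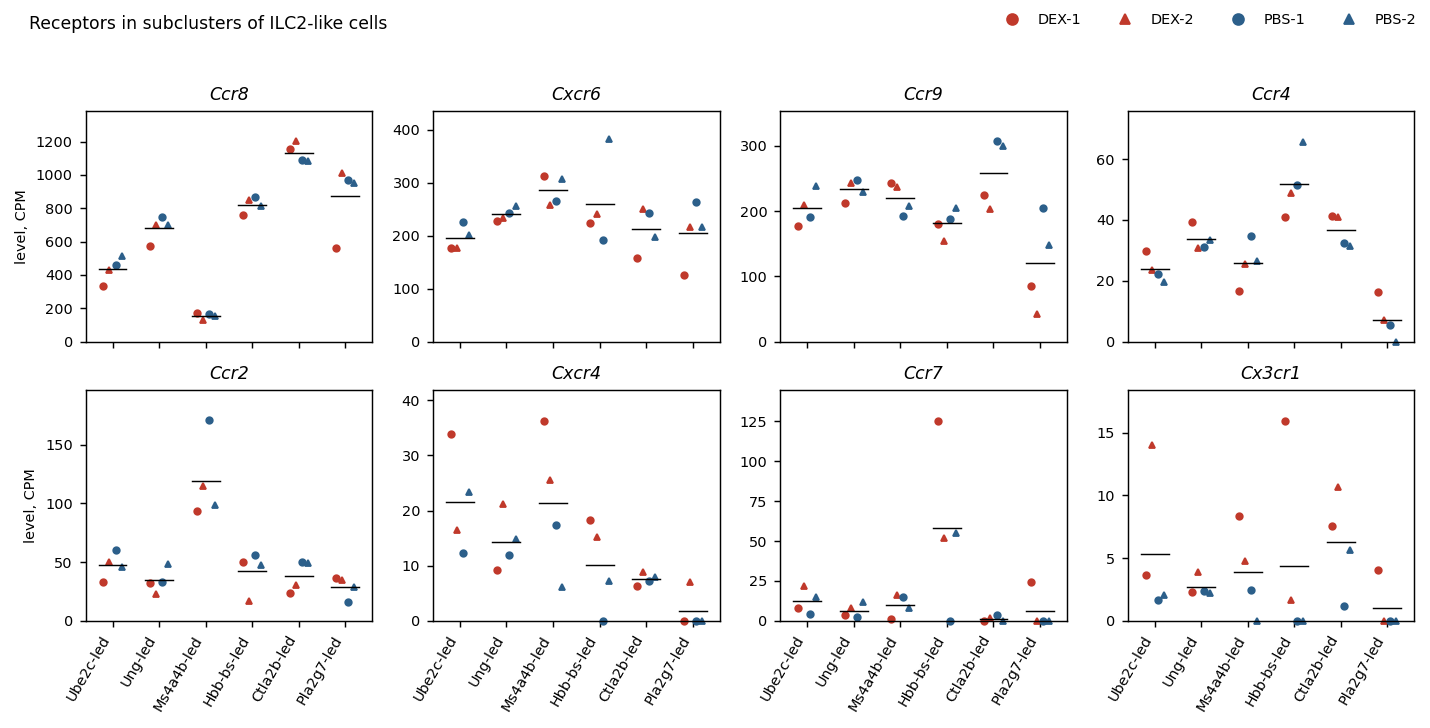
Level (CPM) of 8 receptors in 6 subclusters of ILC2-like cells, called by their leading gene; points are litters and lines their mean. Ccr8 runs from 154 CPM in Ms4a4b-led to 1132.5 CPM in Ctla2b-led cells, while Ccr2 and Cxcr6 are highest in Ms4a4b-led cells.

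Cycling and other ILC2-like cells were compared within litters. A cell counted as cycling when at least 3 of 15 mitotic genes had a UMI after thinning to 2000 UMIs, which gave 370 cycling and 1675 other cells; 90 cells had 2 or 3 such genes and lay near the limit. The cycling subcluster had a median of 14369 UMIs, against 5372 to 7982 in the other 5 compared, and the part of depth or cell size was not tested. With edgeR's quasi-likelihood test and the litter as a term, 34.2% of 9347 genes differed at an adjusted p under 0.05. Of the receptors, 7 passed the filter on low counts and 3 differed, 1 of them higher and 2 lower in cycling cells, which is near that background share.

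Ccr8 was lower in cycling cells, at 366, 446, 461 and 541 CPM in DEX-1, DEX-2, PBS-1 and PBS-2 against 616, 735, 783 and 729 CPM in the other cells. All 4 litters showed this direction, and the groups did not overlap (log2 difference -0.66 ± 0.05 SE, edgeR adjusted p = 7.58e-14). Cxcr6 fell by 0.28 ± 0.06 on the log2 scale (edgeR adjusted p = 0.000509), from 214 to 253 CPM in other cells to 180 to 224 CPM in cycling cells, in 4 of 4 litters, with overlapping ranges. Cxcr4 was higher in cycling cells in 4 of 4 litters, at 36.3, 20.0, 12.0 and 23.8 CPM against 15.8, 16.3, 8.73 and 10.4 CPM. The ranges of the Cxcr4 values overlapped between litters, while the difference within litters was 0.88 ± 0.20 on the log2 scale (edgeR adjusted p = 0.000331); with DESeq2 the adjusted p was 0.0745. Ccr4 was lower in 4 of 4 litters but missed the threshold, at -0.37 ± 0.15 (edgeR adjusted p = 0.0522). Ccr9 (-0.02 ± 0.06), Ccr2 (-0.02 ± 0.11) and Ccr7 (-0.10 ± 0.24) gave differences within their error.

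Of 6 chemoattractant receptors tested, 4 were lower in cycling cells and 0 higher, where 16% of all genes tested were lower and 18.2% higher. The 4 were Gpr25 (-0.56 ± 0.06), the egress receptor S1pr1 (-0.59 ± 0.15), Ltb4r1 (-0.30 ± 0.06) and Gpr183 (-0.63 ± 0.15), while Ptgdr2 (0.05 ± 0.28) and S1pr4 (-0.02 ± 0.11) gave differences within their error. Ccrl2 was also lower (-0.77 ± 0.12), the only gene of its list tested. Of 16 signalling genes tested, 4 were higher (Gnai2, Gnb1, Grk6 and Rac2) and 3 lower (Arrb2, Rgs1 and Rgs2), where 34.2% of all genes tested differed either way, with Rgs1, which dampens G protein signals, at -0.65 ± 0.05. Of 3 ligands tested, Ccl1 was higher (0.55 ± 0.15) and Ccl25 lower (-0.73 ± 0.28). The median difference of the 7 receptors was -0.10 and that of all genes tested -0.02.

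**Figure D3:**
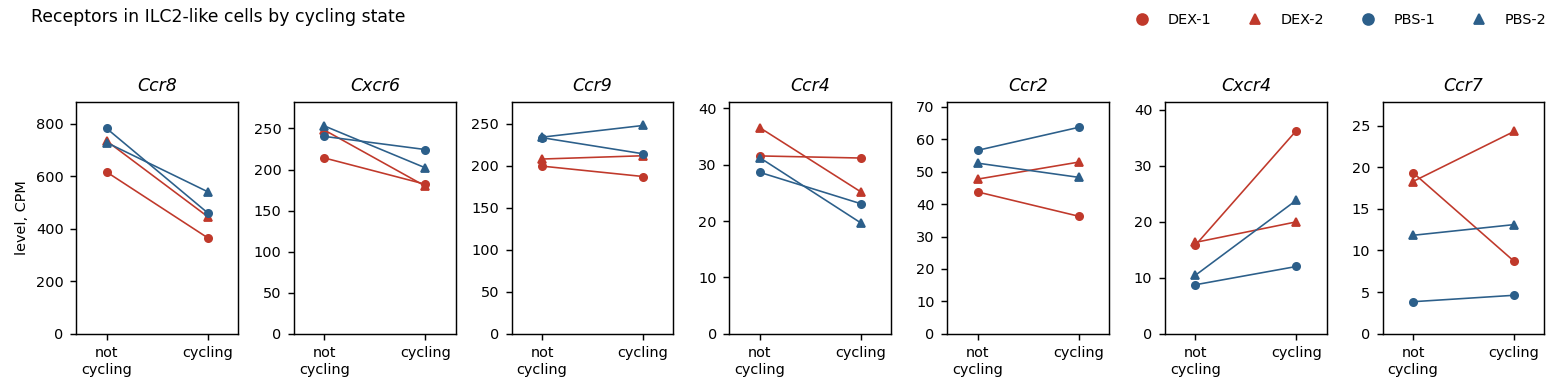
Level (CPM) of 7 receptors in ILC2-like cells that were not cycling and cycling; each line joins the values of a litter. Ccr8 and Cxcr6 fall and Cxcr4 rises in all 4 litters, whereas the lines for Ccr9, Ccr2 and Ccr7 run in both directions.

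Within the mast-like cells, the means of Cx3cr1 and Cxcr4 followed the same order over the 3 largest clusters. Cluster levels lack the scaling factors of the classes, so they cannot be set against the class means above. In Mrgprb1-led cells (786 cells), which were also led by Mrgprb2 and Mcpt4 of connective tissue mast cells, Cx3cr1 stood at 222 CPM (172 to 253 CPM over litters) and Cxcr4 at 2.43 CPM (1.66 to 3.31 CPM). The Cxcr4 value there rests on 3, 2, 2 and 4 UMIs in DEX-1, DEX-2, PBS-1 and PBS-2, at or near the counting limit. Mcpt2-led cells (999 cells) had 310 CPM of Cx3cr1 (289 to 319 CPM) and 17.6 CPM of Cxcr4 (15.1 to 21.3 CPM). Atp8a2-led cells (322 cells) had the most of both, at 396 CPM (368 to 466 CPM) and 25.0 CPM (18.1 to 32.2 CPM). None of the Cx3cr1 ranges of these 3 clusters overlapped, while the Cxcr4 ranges of Mcpt2-led and Atp8a2-led cells did. Ccr1 was also lower in Mrgprb1-led cells (4.97 CPM) than in Mcpt2-led (22.5 CPM) and Atp8a2-led (26.1 CPM) cells. Ccr8 varied less over the same clusters, at 858, 1004 and 1027 CPM, and was lower in Fabp2-led cells (279 cells), at 324 CPM (265 to 398 CPM). Cx3cr1 in Fabp2-led cells ran from 89.6 to 439 CPM and overlapped with the other clusters. In the basophil-like cells the large Ccl4-led cluster (430 cells) had 132 CPM of Ccr1, 178 CPM of Ccr2 and 136 CPM of Cxcr4. The Mcpt8-led cluster had 49 cells, with as few as 4 in a litter, and overlapped with it for all 3 genes.

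In ILC2-like cells of DEX against PBS litters, 1 of the 8 receptors tested passed the threshold, Cx3cr1, and it did so at very low levels. Of 10633 genes tested, 2.92% were called in either direction by edgeR (1.36% higher and 1.55% lower in DEX). Ccr1 and Ccr3 did not pass the filter on low counts. CPM values in these comparisons are scaled within the class. For all 8 receptors the DEX and PBS litters did not overlap, 4 higher and 4 lower in DEX, where 42.5% of all genes tested did not overlap. The median log2 difference of the 8 was 0.04, against 0.00 for all genes tested.

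Cx3cr1 had 28 and 30 UMIs in DEX-1 and DEX-2 and 6 and 14 UMIs in PBS-1 and PBS-2. In CPM these were 5.90 and 8.16 against 1.53 and 2.67, a 3.16-fold difference (log2 1.66 ± 0.38 SE, edgeR adjusted p = 0.0184). The UMIs lay in 21 of 552, 19 of 452, 6 of 487 and 13 of 580 cells, and the cell with the most held 6, 8, 1 and 2 of them. So a few DEX cells with several UMIs added to a larger number with 1. Mast markers summed to 419 and 453 CPM in ILC2-like cells of DEX litters and 389 and 428 CPM in PBS litters, which overlapped, with 2 of 10 markers higher and 2 lower in both DEX litters and Mrgprb1 and Mrgprb2 under 1 CPM throughout. Monocyte markers summed to 133 and 144 CPM in DEX litters and to 108 and 82.3 CPM in PBS litters. Of these 9 markers, 5 were higher and 0 lower in both DEX litters, and Csf1r, F13a1 and Ms4a6c were under 1 CPM. Between the PBS litters, PBS-1 had more monocyte markers and less Cx3cr1 than PBS-2. The part of mast or monocyte RNA was not tested. The call was lost in cells with under 1000 CPM of mast markers (log2 1.28, edgeR adjusted p = 0.141), in cells that were not cycling (1.52, adjusted p = 0.141), without the 5% of cells with the most UMIs (1.26, adjusted p = 0.131), without DEX-2 (1.43, adjusted p = 0.113) and without PBS-1 (1.36, adjusted p = 0.0750). The direction held in each.

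Ccr7 and Cxcr4 were higher in both DEX litters without passing the threshold. Ccr7 had 16.4 and 20.1 CPM in DEX litters and 4.07 and 12.2 CPM in PBS litters, a log2 difference of 1.08 ± 0.40 (edgeR adjusted p = 0.330). The value of PBS-1 stood apart from the other 3, and without PBS-2, which leaves PBS-1 as the lone PBS litter, the log2 difference was 2.14 (adjusted p = 8.11e-05). In DEX-1, 21 of the 78 Ccr7 UMIs came from 1 cell. Cxcr4 had 21.7 and 17.4 CPM against 9.67 and 14.7 CPM, a log2 difference of 0.66 ± 0.21 (edgeR adjusted p = 0.119). It passed without DEX-2 (0.80, adjusted p = 0.0268) and without PBS-2 (1.02, adjusted p = 0.0274), where the lone litter was assumed to vary like the other group. Subcluster numbers differed alongside: Hbb-bs-led cells, with the highest Ccr7 mean, numbered 59 and 82 in DEX litters and 33 and 31 in PBS litters. Ms4a4b-led cells, high in Cxcr4 and lowest in Ccr8, numbered 97 and 90 against 58 and 64. Their part in the differences of Ccr7, Cxcr4 and Ccr8 was not tested.

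The receptors that marked ILC2-like cells differed little. Ccr9 had 196 and 209 CPM against 230 and 241 CPM (log2 -0.22 ± 0.08, edgeR adjusted p = 0.184), and Cxcr6 205 and 226 CPM against 237 and 238 CPM (-0.14 ± 0.08, adjusted p = 0.501). Ccr8 had 543 and 642 CPM against 698 and 672 CPM (-0.21 ± 0.08, edgeR adjusted p = 0.240). In cells with under 1000 CPM of mast markers, a limit set after seeing the data, Ccr8 was called lower in DEX at -0.30 (adjusted p = 0.0223). Ccr2 had 41.97 and 49.5 CPM against 58.8 and 51.2 CPM (-0.27 ± 0.12, edgeR adjusted p = 0.371), and Ccr4 31.6 and 32.9 CPM against 27.5 and 27.7 CPM (0.22 ± 0.14, adjusted p = 0.587). These differences were at most 1.20-fold, and a p that misses the threshold does not show equal levels.

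**Figure D4:**
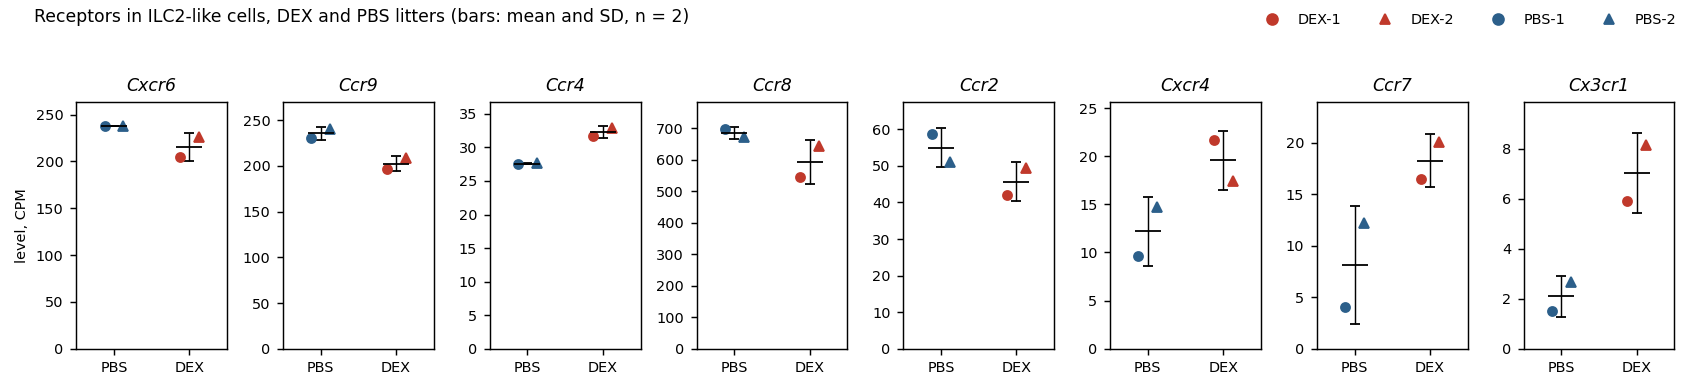
Level (CPM, scaled within the class) of 8 receptors in ILC2-like cells of PBS and DEX litters; points are litters, and bars show the mean and SD of 2 litters. Cx3cr1 lies at 5.90 and 8.16 CPM in DEX litters and at 1.53 and 2.67 CPM in PBS litters, and the litters of the groups do not overlap for any of the 8.

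Among other listed genes of ILC2-like cells, 5 passed the threshold, where 1.36% of all genes tested were called higher and 1.55% lower in DEX. Ltb4r1, the leukotriene B4 receptor, was lower in DEX litters, at 199 and 166 CPM against 381 and 296 CPM (log2 -0.88 ± 0.13, edgeR adjusted p = 0.0135), as 1 of 6 chemoattractant receptors tested. Ccrl2 was lower at 43.7 and 41.6 CPM against 76.6 and 60.3 CPM (-0.67 ± 0.12, adjusted p = 0.00329), as 1 of 2 chemokine receptors of its list tested. Of 16 signalling genes tested, 2 were lower and 1 higher. Arrb2, which encodes an arrestin that uncouples receptors from G proteins, fell by 0.58 ± 0.08 (adjusted p = 0.000188). Rgs18 fell by 1.00 ± 0.16 (adjusted p = 0.000883), and Rgs2 rose by 0.34 ± 0.08 (adjusted p = 0.0142). Both encode regulators that shorten G protein signals. Of 3 ligands tested, 0 passed.

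In mast-like cells 0 of 10609 genes were called by edgeR, against 602 (5.67%) at an unadjusted p under 0.05 and 12 with DESeq2, so 0% was the background share, and 0 of the 5 receptors tested passed. Ccr8 had 1014 and 923 CPM in DEX litters and 865 and 964 CPM in PBS litters (log2 0.08 ± 0.11). Cx3cr1 had 288 and 290 CPM against 291 and 307.94 CPM (-0.05 ± 0.10). So the litters overlapped for Ccr8 and did not for Cx3cr1, 1 of 5 receptors, where 33.6% of all genes tested did not overlap. Cxcr4 (0.04 ± 0.23), Ccr1 (0.21 ± 0.21) and Ccr2 (0.24 ± 0.55) were also within their error or close to it. In basophil-like cells, too, 0 of 7268 genes were called (110, or 1.51%, at an unadjusted p under 0.05, and 0 with DESeq2). Ccr1 had 125 and 138 CPM against 148 and 121 CPM (log2 -0.04 ± 0.21), and Cxcr4 119 and 208 CPM against 163 and 146 CPM (0.10 ± 0.26). Ccr2 had 141 and 163 CPM against 260 and 113 CPM (-0.32 ± 0.36), so PBS-1 and PBS-2 bracketed the DEX litters. Cx3cr1 had 4 and 13 UMIs against 12 and 12, or 4.86 and 9.52 CPM against 10.6 and 18.6 CPM (-0.86 ± 0.58). It was 1 of 4 receptors without overlap, where 26% of all genes tested did not overlap.

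In the Ctss-led cluster 0.248% of 5640 genes were called by edgeR, and 0 of the 3 receptors tested. Ccr2 had 126 and 115 CPM in DEX litters and 197 and 159 CPM in PBS litters, so the groups did not overlap, as for 37.1% of all genes tested (log2 -0.56 ± 0.21, edgeR adjusted p = 0.487). Ccr1 (-0.06 ± 0.24) and Cx3cr1 (0.11 ± 0.33) did not differ beyond their error. Of the 9532 genes tested in Elane-led cells, 0.0105% were called, and 0 of 5 receptors.

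In B-like cells 0.138% of 3616 genes were called by edgeR, and of the 2 receptors tested Ccr7 was not among them. Ccr7, the receptor of these cells, had 987 and 1941 CPM in DEX litters and 861 and 1641 CPM in PBS litters (log2 0.23 ± 0.52, edgeR adjusted p = 0.997), so litters of a group differed more than the groups. Ccr8 was called, with 0 and 1 UMIs in DEX litters and 19 and 28 UMIs in PBS litters, without overlap as for 33.5% of all genes tested (log2 -5.09 ± 0.75, edgeR adjusted p = 0.0262). These UMIs lay in very few cells. In PBS-1 there were 2 cells, 1 with 15 UMIs, and in PBS-2 also 2 cells, 1 with 21 UMIs, of 56 and 57 B-like cells. The Ccr8 cells had a median of 11536 UMIs in PBS-1 and 12105 UMIs in PBS-2, where all B-like cells had 3575 and 3607, and their median of mast markers was 157 CPM in PBS-1 and 24339 CPM in PBS-2. ILC2 markers summed to 39.4 and 21.6 CPM in B-like cells of DEX litters against 328 and 76.6 CPM in PBS litters, and mast markers to 91.9 and 1188 CPM against 122 and 2396 CPM. The part of joined cells in this difference was not tested. In cells with under 1000 CPM of mast markers, a limit that leaves out the PBS-2 cells at such a level, Ccr8 did not pass the filter on low counts. The call was also lost with DESeq2 (adjusted p = 0.525), with the replicate block (adjusted p = 0.235) and without PBS-2 (adjusted p = 0.633).

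**Figure D5:**
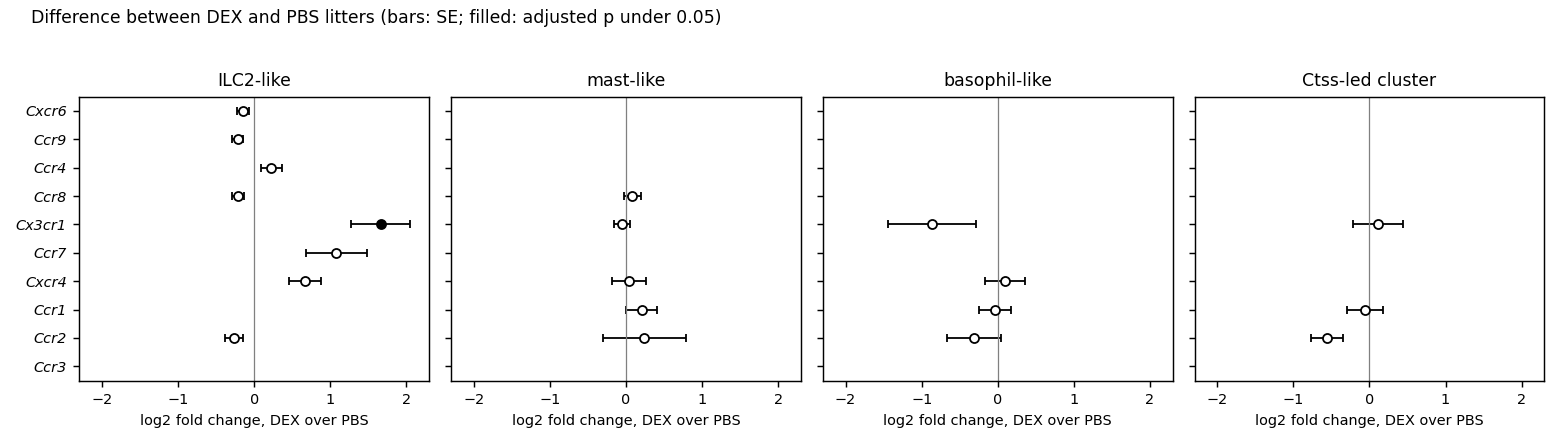
Log2 difference of DEX over PBS litters for each receptor that passed the filter in ILC2-like, mast-like, basophil-like and Ctss-led cells, with bars for the SE; filled points have an edgeR adjusted p under 0.05. In these 4 classes the single filled point is Cx3cr1 in ILC2-like cells, at 1.66, against -0.05 in mast-like cells; Ccr8 in B-like cells, called at -5.09, is not drawn.

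Whether the DEX difference itself differed between ILC2-like and mast-like cells was tested in 1 fit over both classes. Of 11625 genes, 0.086% were called by edgeR, and 0 of the 9 receptors tested. Cx3cr1 came closest, with a DEX difference that was 1.70 ± 0.32 higher in ILC2-like cells on the log2 scale (edgeR adjusted p = 0.0895), and it passed without DEX-1 (1.94, adjusted p = 0.00144). For Ccr8, high in both classes, the DEX difference was lower in ILC2-like cells by -0.31 ± 0.13 (edgeR adjusted p = 0.749), and it passed without DEX-2 (-0.50, adjusted p = 0.0282).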

How the data were processed

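Single-cell RNA of 4 hashtagged litters was sequenced from 10x Genomics 5′ libraries. The authors counted UMIs per gene and barcode with Cell Ranger 7 against mm10, per the submitters' processing notes, and the deposited values are raw counts in a single matrix of 32285 genes and 4 hashtags over 10648 barcodes (1 library, 0 barcodes shared). Gene positions from GENCODE M21 serve for location only.

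Barcodes with at least 200 genes and at most 5% mitochondrial UMIs were kept (10409), the limits of the study. Hashtags were assigned by HTODemux (Seurat 5.3.0). This gave 7268 singlets, while 736 hashtag doublets and 2405 barcodes without a hashtag were dropped, and doublets within a litter were not removed. A figure legend gives fewer dams per group than the methods, labels and hashtags; the hashtags were followed. Clustering used scanpy 1.11.5 (2000 variable genes, 20 principal components, 15 neighbours, Leiden resolution 1, and 0.5 for ILC2-like subclusters), with 65 listed genes left out. A cluster was named where 3 markers each were in 25% of cells, the mean marker share was 30%, the next type reached at most 70% of it, and under 20% of barcodes were hashtag doublets. The authors' annotation was not used here, so the names are rebuilt and could differ from theirs; these naming limits were chosen with the clusters in view.

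UMIs were summed per class and litter and tested with edgeR 4.0.16 in R 4.3.3 (quasi-likelihood F-test, two-sided, TMM, filterByExpr, Benjamini-Hochberg over all genes, 0.05), where each litter had at least 20 cells. With 2 litters a group, p-values measure the spread between litters only. DESeq2 1.42.0, size factors, filters, hashtag callers, clustering, thinning, the replicate block and leaving out each litter were alternatives. Data were also simulated with the mean levels and UMI sums of the ILC2-like comparison (10655 genes). The spread between litters (dispersion) was set to 0.02 for every gene and not estimated from these litters. There, 54.5% of changes of 1 and 6.12% of changes of 0.5 on the log2 scale were recovered, with 2 false calls. The rates hold for that setting only.

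The receptors and gene lists were chosen with earlier results of these data known. Named are all 10 receptors, listed genes that passed a test or reached 10 CPM in a class, and for each receptor with 20 CPM in a class the 3 genes most correlated with it. Same-numbered litters share only a number: their deviations correlated at 0.0566 in ILC2-like, 0.136 in mast-like and -0.272 in basophil-like cells.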

Additional observations from a re-analysis of the deposited data

Results flagged for a closer look

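Cx3cr1 lay higher in both DEX litters than in both PBS litters in ILC2-like cells (log2 difference 1.66) and lower in both in basophil-like cells (-0.86, with 4, 13, 12 and 12 UMIs). The difference between these classes was not tested.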

How the results depend on the processing

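In ILC2-like cells the 310 genes called for DEX against PBS became 117 with DESeq2, 181 in cells not cycling, 471 with no filter on low genes, 492 with the replicate block and 112 thinned to 2000 UMIs (287 to 400 without each litter). The receptors called, 1, became 0 with DESeq2 (where the adjusted p of Cx3cr1 is not given), in cells not cycling, thinned and without the top 5% of UMIs, 3 with no filter, 2 with the block (Ccr7, adjusted p = 0.00682) and 0 to 3 without each litter. In mast-like cells the 0 genes became 12 with DESeq2, 148 with no filter, 276 with the block, 8 thinned, 2 each at Leiden resolution 0.5, at a mitochondrial limit of 10%, with the ratio rule for hashtags, with relative log expression factors and without the top 5% of UMIs, and 0 to 27 without each litter. In basophil-like cells the 0 genes became 6 with no filter, 4 with a crossed replicate block and 1 to 10 without each litter. No receptor was called in either class under any alternative run. In B-like cells the 5 genes became 3 with the block, 10 without the top 5% and 44 to 72 without each litter, and the receptors called, 1, became 0 with DESeq2, with the block, under 1000 CPM of mast markers and 0 to 1 without each litter. In the Ctss-led cluster 14 genes became 1 with DESeq2, 26 with the block, 7 without the top 5% and 24 to 129 without each litter. For cycling cells 3193 genes became 1476 with DESeq2, 3280 with at least 2 cycling genes and 2599 with at least 5. The receptors called there, 3, became 2 with DESeq2, and 4 with at least 2 cycling genes, with relative log expression factors and without DEX-1. In the interaction 10 genes became 96 with no filter and 0 to 90 without each litter, and the receptors called, 0, became 1 with no filter and 0 to 1 without each litter. Where 1 litter was left out, the lone litter was assumed to vary like the other group. The causes were not tested. Of the 9 receptors with a readable level, all 9 had the same highest class thinned, with MULTIseqDemux and at Leiden resolution 0.5. At that resolution the Ctss-led, Elane-led and Scin-led clusters were not among the classes, so they could not rank highest. Over these alternatives, 7 mean levels in the highest class moved by the SD between litters or more, and 20 did not. The block changed no other receptor's call than those of Ccr7 in ILC2-like and Ccr8 in B-like cells, and litters pair by number only.

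Directions turned for receptors not called, and the lowest and highest log2 differences without each litter were as follows. For DEX against PBS they were -0.36 and 0.75 for Ccr7 in B-like cells. In the Ctss-led cluster they were -0.27 and 0.19 for Ccr1 (0.051 without the top 5% of UMIs) and -0.11 and 0.42 for Cx3cr1 (-0.0043 without the top 5%). In basophil-like cells they were -0.37 and 0.43 for Cxcr4 (-0.071 thinned), -0.16 and 0.13 for Ccr1 (0.058 without the top 5%) and -0.76 and 0.44 for Ccr2. In mast-like cells they were -0.21 and 0.28 for Cxcr4 and -0.14 and 0.87 for Ccr2, and Ccr1 gave -0.017 thinned. For cycling cells they were -0.084 and 0.052 for Ccr2, -0.37 and 0.28 for Ccr7 (0.013 with at least 2 cycling genes) and -0.067 and 0.011 for Ccr9. For the interaction they were -2.44 and 3.11 for Cxcr6, -2.54 and 1.91 for Ccr1 and -1.23 and 0.00028 for Ccr2, genes with few UMIs in 1 of the classes.

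In the simulation with 2 litters a group, log2 changes of 0.5 were mostly missed (6.12% recovered), and 54.5% of log2 changes of 1 were recovered. Sizes between these were not simulated. The dispersion was set to 0.02, so these rates need not hold for the real litters. The mast marker limit, the crossed block and the alternatives for B-like and Ctss-led cells were chosen after seeing the data.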
